A study of Mus musculus with 3 samples.

Results

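C1qa, C1qb and C1qc encode the A, B and C chains of complement component C1q, and they were followed by symbol as 3 of the 28692 genes counted in single sorted liver macrophages. The groups were 1 mouse on chow (day 0) and 1 mouse each fed the Lieber-DeCarli liquid diet, containing 5% ethanol, for 3 or for 10 days, all male, aged 8 weeks and sequenced as 1 library each. The strain was not given in the sources used here. Liver cells other than hepatocytes were freed with collagenase, sorted as live, F4/80-high and CD11b-intermediate, and sequenced from the 3' end (10x Genomics Chromium, v2 chemistry). With 1 library per diet, the mouse, the preparation and the diet cannot be told apart. Ethanol and a change from chow to liquid food also came together, because the control ate chow. No test between diets was possible. The 95% intervals below cover counting error only and say nothing about differences between mice.

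C1q is the recognition molecule of the classical complement pathway. It binds antibody on a surface, C-reactive protein or dying cells, and then activates the proteases C1r and C1s, which cut C4 and C2. Each of its arms winds together 1 A, 1 B and 1 C chain, so the protein holds the chains in equal number. Most complement proteins in blood come from hepatocytes, while C1q comes mainly from macrophages, in the liver from Kupffer cells, the resident macrophages of the sinusoids.

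The 3 genes stand side by side on the minus strand of mouse chromosome 4 (GRCm38, GENCODE annotation), over 18675 bases in all. C1qb (ENSMUSG00000036905) lies at chr4:136880129-136886187, C1qc (ENSMUSG00000036896) at chr4:136889804-136893065 and C1qa (ENSMUSG00000036887) at chr4:136895917-136898803. Gaps of 3616 and 2851 bases separate them. The first listed transcript of each has 3 exons, a second C1qc transcript has 2, and no other annotated gene overlaps any of them. RefSeq promoter entries (GRCm38.p6) matched 2 of the 3 genes, C1qb and C1qc. Their bases before the start are shown because both genes share a locus and cell type but differed in how their RNA varied. The stretch for C1qb is chr4:136886201-136886450, and that for C1qc, shortened so that it holds no annotated exon, is chr4:136893066-136893164. Both are written 5' to 3' on the minus strand, with capitals on the letters searched for.
C1qb: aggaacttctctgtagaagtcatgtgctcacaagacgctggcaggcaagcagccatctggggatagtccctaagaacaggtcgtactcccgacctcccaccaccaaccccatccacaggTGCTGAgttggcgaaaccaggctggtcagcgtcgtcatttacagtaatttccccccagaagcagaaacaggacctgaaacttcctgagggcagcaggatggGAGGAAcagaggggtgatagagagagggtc
C1qc: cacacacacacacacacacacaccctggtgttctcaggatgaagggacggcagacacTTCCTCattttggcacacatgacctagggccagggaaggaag
The letters searched, on both strands, were TGCTGA, a half-site of MAF factors, and GAGGAA, a core of PU.1 sites. MAF and PU.1 are transcription factors of macrophages. The C1qb stretch holds TGCTGA 131 bases and GAGGAA 30 bases before the start. The C1qc stretch holds GAGGAA on the other strand, printed as TTCCTC, 193 bases before the RefSeq start. That match is 42 bases from the end of the printed stretch, which therefore stops well short of the RefSeq start. The stretch ends at the base next to the C1qc gene as GENCODE places it. Among 32851 RefSeq promoters cut to 250 bases, 16.1% hold TGCTGA and 23.3% hold GAGGAA. In the first 99 bases of each, the part that matches the C1qc stretch, the shares are 6.43% and 9.91%, so both strings are common and their presence here is a description only.

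A UMI (unique molecular identifier) tags each RNA molecule once, and levels are UMIs per 1000000 UMIs of the summed cells, written CPM. The kit reads the 3' end of each RNA, so a count does not grow with gene length. Capture may still differ between genes, and shares of the subunits are shares of captured RNA rather than of protein. The libraries held 21650747 (chow), 21471782 (3 days) and 16538895 (10 days) UMIs. Barcodes with at least 1000 UMIs, at least 300 genes and at most 10% mitochondrial UMIs numbered 2767, 4061 and 3014. The labels give 3000 to 5000 cells per sample. Clusters built without the C1q genes were called Kupffer-like from Clec4f, a lectin receptor, and Cd5l, a secreted macrophage protein. They held 2410, 3624 and 2643 barcodes, 87.1%, 89.2% and 87.7% of those kept. In them 97.6%, 95.9% and 95.01% of barcodes carried at least 3 UMIs of each marker, which restates the rule that named them. Without thinning, 72.6% of T and NK-like cells on chow also held a Clec4f UMI. Kupffer-like barcodes were deeper on chow, with a median of 4581 UMIs against 3038.5 and 3052. Their median mitochondrial share was 5.24%, 5.18% and 6.43%. Between 13 and 20 kept barcodes were shared by any pair of libraries.

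C1q RNA was among the most abundant RNAs of Kupffer-like cells in every library, and its summed level was lower in both ethanol libraries than on chow. The 3 genes together gave 15422 CPM on chow, 12715 at 3 days and 11635 at 10 days. The ratio to chow was 0.824 (0.819 to 0.830) at 3 days and 0.754 (0.749 to 0.760) at 10 days, and 10 days over 3 days was 0.915 (0.908 to 0.922). Among all detected genes ordered by level on chow, C1qa ranked 14, C1qc 16 and C1qb 26. At 10 days the order had changed, with C1qc at rank 18, C1qa at 23 and C1qb at 54. Every Kupffer-like barcode in all 3 libraries held at least 1 C1q UMI. So did 96.6%, 92.2% and 82.4% of T and NK-like cells, so this is not particular to Kupffer-like cells. The median Kupffer-like barcode had 62 on chow, 35 at 3 days and 34 at 10 days, and these medians also carry the difference in depth.

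The 3 subunits did not differ alike. C1qa, the A chain, was at 5856 CPM on chow, 5001 at 3 days and 4414 at 10 days. It was lower at each later day, with ratios to chow of 0.854 (0.845 to 0.864) and 0.754 (0.744 to 0.763). C1qb, the B chain, was at 4034, 2871 and 2259 CPM. It had the lowest ratios of the 3, 0.712 (0.702 to 0.722) and 0.560 (0.551 to 0.569). C1qc, the C chain, was at 5532, 4843 and 4962 CPM. Its ratios to chow were 0.875 (0.866 to 0.885) and 0.897 (0.886 to 0.908), so it was highest on chow. In the summed cells it was slightly higher at 10 days than at 3 days, by 1.02 (1.01 to 1.04). Within the depth ranges described below, this ratio was 1.04, 1.09, 0.960 and 0.925, from shallow to deep. Their geometric mean was 1.001, so at like depth the direction was not steady. For 10 days over 3 days in the summed cells, C1qa gave 0.883 and C1qb 0.787. The comparisons of 3 and 10 days with chow share the chow library.

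The markers that defined the cells did not follow this order. Clec4f was at 4160, 4086 and 4103 CPM and Cd5l at 5373, 5869 and 5744 CPM. Their ratios to chow stayed between 0.982 and 1.09. Because both named the cells, that choice could hold their levels alike, and they are not an independent reference for C1q.

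**Figure D1:**
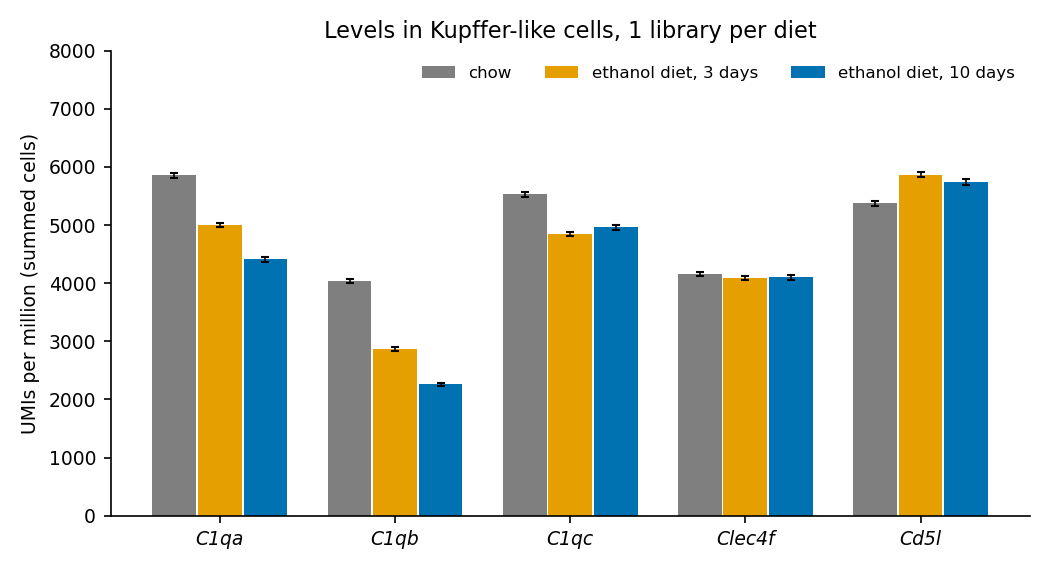
Bars give CPM in the summed Kupffer-like cells for the 3 C1q genes and the markers Clec4f and Cd5l, 1 library per diet, and error bars are exact Poisson 95% intervals of the counts. C1qb goes from 4034 on chow to 2259 at 10 days. Clec4f, which helped to name the cells, lies between 4086 and 4160.

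To read these ratios against the other genes, a gene was counted as different when its ratio was above 1.5 or below 0.667 and its counting interval excluded 1. Over the 7510 genes with a mean of at least 10 CPM, the share that met it was 4.54% for 3 days over chow and 6.14% for 10 days over chow. For 10 days over 3 days it was 4.19%. None of the 3 C1q genes met it at 3 days or between 10 and 3 days. At 10 days over chow 1 of 3 did, C1qb, where 2.33% of all genes were lower by this rule. A ratio lower than that of C1qb was seen for 2.58% of genes at 3 days and 0.506% at 10 days. For C1qa these shares were 15.4% and 7.11%, and for C1qc 18.6% and 22.1%. The median log2 ratio of all 7510 genes, with 1 CPM added, was 0.04 and 0.07. With barcodes of like depth compared, as described next, C1qb at 10 days met the rule in 1 of 4 depth ranges and its mean over the ranges was not past 1.5-fold.

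C1qb RNA made up a larger part of the cell's RNA in barcodes with more UMIs, in every library, and C1qa and C1qc did not follow it. Kupffer-like barcodes were split at 2000, 4000 and 8000 UMIs. On chow, C1qb was at 2009 CPM in barcodes of 1000 to under 2000 UMIs, then 2612, 4063 and 5864 CPM in the deeper ranges. At 3 days it was at 1430, 2224, 3766 and 4866 CPM. At 10 days it was at 1362, 1824, 2858 and 3735 CPM. The deepest range was 2.92 times the shallowest on chow, 3.40 times at 3 days and 2.74 times at 10 days. The same ratio was 0.898 to 1.09 for C1qa, 0.980 to 1.196 for C1qc, 1.09 to 1.33 for Clec4f and 0.835 to 1.13 for Cd5l. Ordered by the smallest of its 3 ratios, C1qb was at rank 32 of 1370 genes with at least 100 CPM. Of the 25 genes at the top, 14 carry ribosomal protein symbols and 6 provisional Gm symbols. The rest included Krtcap2, Cd68, Gapdh and Tyrobp. Of these, Cd68 is a lysosomal glycoprotein of macrophages and Tyrobp an adaptor of myeloid receptors, and they were looked at after their values were seen.

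**Figure D2:**
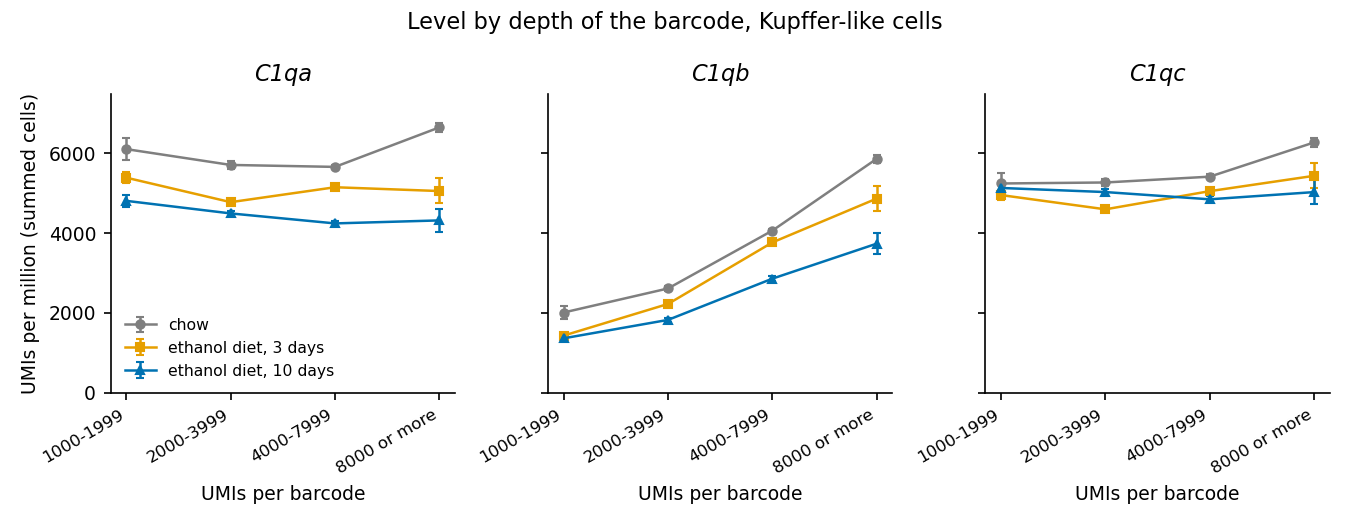
Each panel gives 1 C1q gene in Kupffer-like cells, with CPM against the UMIs of the barcode in 4 ranges, 1 line per library and exact Poisson 95% intervals. The C1qb lines rise from 1362 to 2009 in the shallowest range to 3735 to 5864 in the deepest, while those of C1qa and C1qc stay close to level.

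The depth ranges were filled unequally. Chow had 205, 757, 1227 and 221 barcodes in them, 3 days 721, 1852, 1029 and 22, and 10 days 540, 1364, 717 and 22. So the ethanol libraries had more shallow barcodes, in which C1qb is low, and few deep ones. Within the 4 ranges, C1qb at 10 days over chow was 0.678, 0.698, 0.703 and 0.637, all below 1 and all closer to 1 than the 0.560 of the summed cells. The value in the deepest range (0.591 to 0.686) met the 1.5-fold rule, with 22 barcodes at 10 days. Their geometric mean was 0.679, and 0.693 without the deepest range, neither of which is past 1.5-fold. At 3 days over chow the 4 values were 0.712, 0.851, 0.927 and 0.830, with a mean of 0.826. C1qa moved little when depth was matched, with means of 0.845 at 3 days and 0.741 at 10 days. C1qc gave 0.903 and 0.905, and the sum 0.868 and 0.789. The order of the subunits at 10 days, C1qb lowest and C1qc nearest to chow, was the same in all 4 ranges. At 3 days C1qb was lowest only in the shallowest range, and in the others C1qa was. The splits by depth were chosen after the data were seen.

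**Figure D3:**
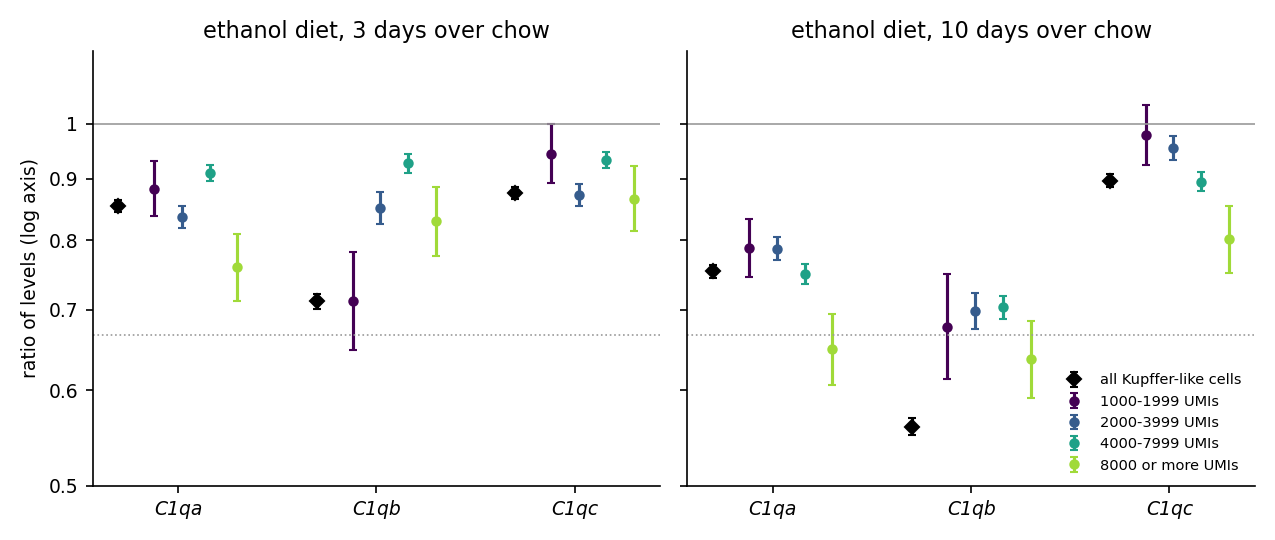
Points give the level over that on chow (log axis) for each C1q gene at 3 days and 10 days, for all Kupffer-like cells (black diamonds) and within 4 ranges of UMIs per barcode, with exact 95% counting intervals; solid and dotted lines mark 1 and 0.667. For C1qb at 10 days the diamond is at 0.560 and the ranges are at 0.637 to 0.703.

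C1qb also varied with the mitochondrial share, which moves with depth. On chow its part of the C1q UMIs was 30.6% in Kupffer-like barcodes with up to 4% mitochondrial UMIs and 21.7% in those with 8 to 10%. At 3 days these shares were 28.1% and 18.1%, and at 10 days 30.3% and 15.8%. The median depth of those barcodes was 6400.5 against 2964.5 UMIs on chow, 4377 against 2346 at 3 days and 4794 against 2223.5 at 10 days. The part of depth, RNA quality and cell size in the C1qb levels was not tested.

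In the summed cells, the balance of the 3 RNAs differed between libraries. On chow, C1qa made up 38.0%, C1qb 26.2% and C1qc 35.9% of the C1q UMIs of Kupffer-like cells. At 3 days the shares were 39.3%, 22.6% and 38.1%. At 10 days they were 37.9%, 19.4% and 42.6%. C1qb was the least frequent of the 3 in every library and C1qc gained at each later day, while the share of C1qa stayed within 37.9% to 39.3%. Within the 4 depth ranges, from shallow to deep, the C1qb share was 15.04%, 19.22%, 26.84% and 31.21% on chow. It was 12.15%, 19.18%, 26.96% and 31.69% at 3 days and 12.05%, 16.07%, 23.92% and 28.56% at 10 days. So at 3 days its counting interval lay below that of chow only in the shallowest range, and at 10 days in all 4. In barcodes with at least 10 C1q UMIs, not matched for depth, the median C1qb share was 23.8%, 19.4% and 16.3%. From barcode to barcode it varied more than counting gives, with a variance 2.29, 1.98 and 1.94 times the multinomial one. Within depth ranges this was 1.75, 1.47 and 1.51 times. For C1qa the variance was 1.47, 1.32 and 1.27 times the multinomial one, and 1.27, 1.16 and 1.16 times within depth ranges. For C1qc it was 1.55, 1.35 and 1.31 times, and 1.44, 1.26 and 1.24 times within depth ranges. So C1qb was the most variable part of the balance by both measures.

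Dividing 1 subunit by another within a library needs no scaling to a total. C1qc over C1qa was 0.945 (0.935 to 0.955) on chow, 0.968 (0.957 to 0.979) at 3 days and 1.12 (1.11 to 1.14) at 10 days. Thus C1qa was the more frequent RNA on chow and C1qc at 10 days. In the 4 depth ranges this ratio was 0.859, 0.923, 0.957 and 0.943 on chow, and 1.07, 1.12, 1.14 and 1.16 at 10 days. At 3 days it was 0.919, 0.962, 0.981 and 1.08. Every range at 10 days was above 1 and every range on chow below 1.

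Clusters of Kupffer-like cells showed the same. There were 7, and at 10 days C1qc over C1qa was above 1 in 7 of 7 (1.08 to 1.24). On chow it was above 1 in 1 of 7 (0.886 to 1.00) and at 3 days in 2 of 7 (0.924 to 1.196). These clusters were made from genes other than C1q, and some were filled mostly by 1 library. Cluster 0 held 1185 of its 1693 barcodes from chow, cluster 3 2070 of 2221 from 3 days and cluster 1 885 of 1111 from 10 days.

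**Figure D4:**
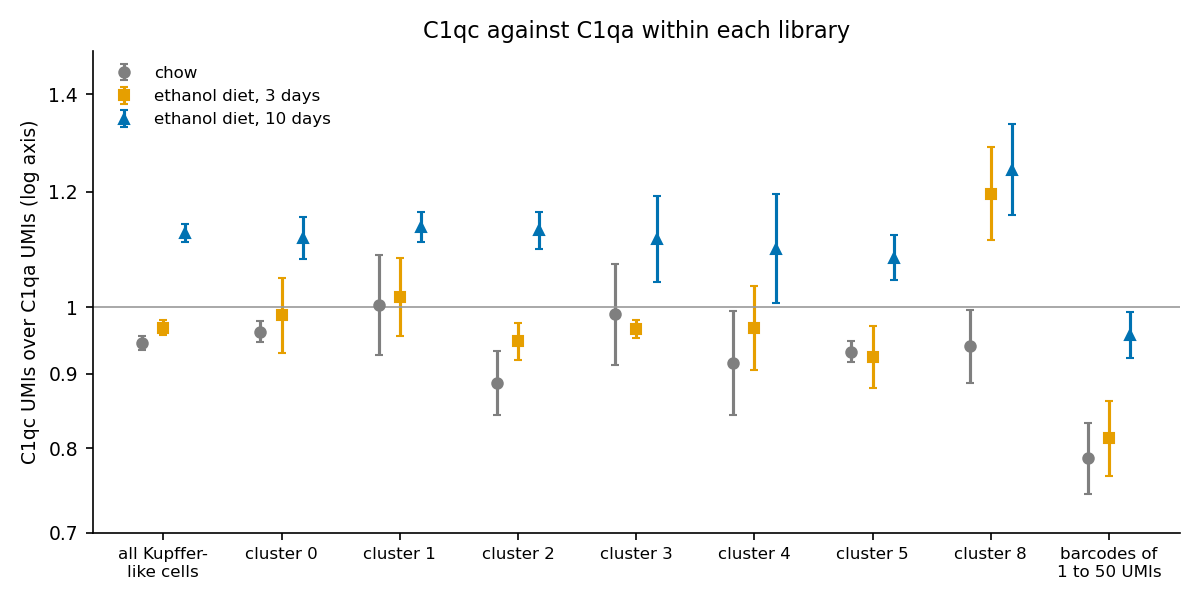
Points give C1qc UMIs over C1qa UMIs (log axis) in all Kupffer-like cells, in each of their 7 clusters and in barcodes of 1 to 50 UMIs, by library, with exact 95% counting intervals. The 10-day points of the clusters lie at 1.08 to 1.24, and those of chow at 0.886 to 1.00.

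Among the clusters, the summed C1q level was highest in cluster 5, the deepest (median 6279 UMIs), with 18207 CPM on chow, 17107 at 3 days and 13362 at 10 days. C1qb alone was at 5589, 5296 and 3778 CPM there. The lowest sums were in cluster 8, led by the cell-cycle genes Top2a, Stmn1 and Ube2c. It had 11517, 9289 and 9332 CPM in 96, 81 and 92 barcodes. Cluster 2, the shallowest (median 1853 UMIs), had the lowest C1qb, at 1861, 1432 and 1406 CPM, with C1qa at 6015, 5171 and 4666 CPM. Cluster 4, led by the chemokine genes Cxcl9 and Cxcl10, had sums of 14942, 12277 and 10762 CPM in 41, 103 and 62 barcodes. Within clusters with at least 50 barcodes in both libraries, the sum at 3 days over chow was 0.807 to 1.01, below 1 in 5 of 6. At 10 days over chow it was 0.734 to 0.947, below 1 in 6 of 6. At 10 over 3 days it was 0.781 to 1.00, below 1 in 5 of 7. With the 6 clusters that had at least 50 barcodes in every library weighted equally, C1qb at 10 days over chow was 0.774, which is not past 1.5-fold, against 0.560 when all barcodes were summed.

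C1q RNA was lower in the other named cell types than in Kupffer-like cells of the same library, from 5.16% of that level in dendritic-like cells on chow to 64.2% in B and plasma-like cells at 3 days. T and NK-like cells numbered 117, 90 and 153, with median depths of 3538, 2614.5 and 2448 UMIs. Their summed level was 1238 (1136 to 1346), 864 (758 to 980) and 739 (658 to 827) CPM, or 8.03%, 6.79% and 6.35% of the Kupffer-like level. Sinusoidal endothelium-like cells (45, 117 and 81) had 3850, 3162 and 3087 CPM. Conventional dendritic-like cells (7, 9 and 4) had 796, 817 and 710 CPM. Hepatocyte-like cells (7, 8 and 18) had 1344, 885 and 2498 CPM. B and plasma-like cells (20, 10 and 12) had 5645, 8165 and 1149 CPM, a range that follows their Clec4f and Cd5l content. That content was 43.2%, 90.3% and 8.71% of the level in barcodes of 1 to 50 UMIs. Clusters that mixed Kupffer markers with those of T cells or of other myeloid cells were left unnamed (127, 191 and 91 barcodes), and in the mixture with T cells C1q was at 10790, 9357 and 9264 CPM. A cluster of monocyte and neutrophil genes, also unnamed (34, 12 and 12 barcodes), had 1389, 2660 and 748 CPM.

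Barcodes of 1 to 50 UMIs, which hold mainly RNA free in the suspension, carried much C1q. Their level was 10040 (9807 to 10277) CPM on chow, 8793 (8574 to 9017) at 3 days and 7477 (7360 to 7595) at 10 days. This was 65.1%, 69.2% and 64.3% of the Kupffer-like level, in the same order of libraries as in the cells. Of all C1q UMIs, 29.2%, 27.7% and 26.1% were in barcodes under 1000 UMIs and 63.7%, 65.4% and 64.5% in Kupffer-like cells. The subunits in the free RNA were 40.6%, 27.4% and 32.0% (C1qa, C1qb, C1qc) on chow. They were 40.2%, 27.1% and 32.7% at 3 days and 39.0%, 23.6% and 37.3% at 10 days. C1qc over C1qa was 0.787, 0.813 and 0.957 there, below the ratio in the cells of each library but highest at 10 days too.

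C1q was also set against the marker RNAs in each source. C1q UMIs over Clec4f plus Cd5l UMIs were 1.62, 1.28 and 1.18 in Kupffer-like cells and 1.30, 1.07 and 0.850 in barcodes of 1 to 50 UMIs. In T and NK-like cells the ratio was 1.56 (1.36 to 1.79), 1.04 (0.864 to 1.25) and 0.891 (0.760 to 1.04). In endothelium-like cells it was 1.61 (1.41 to 1.84), 1.46 (1.32 to 1.61) and 1.09 (0.982 to 1.21). On chow the interval of T and NK-like cells includes the Kupffer-like value and not that of the low-UMI barcodes. At 3 and 10 days it includes the low-UMI value and not the Kupffer-like one. The interval of endothelium-like cells includes the Kupffer-like value on chow and at 10 days and lies above both at 3 days. Clec4f and Cd5l in T and NK-like cells were at 10.3%, 10.2% and 9.44% of their level in the free RNA, and in endothelium-like cells at 30.9%, 26.5% and 32.2%. So C1q was higher in endothelium-like than in T and NK-like cells together with both Kupffer markers. Free RNA, doublets and expression by these cells were not told apart, and the part of each was not tested.

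Thinned to 1000 UMIs per barcode, with no barcode lost, C1qa was seen in 99.5%, 99.1% and 98.1% of Kupffer-like cells and C1qc in 98.8%, 98.9% and 99.1%. C1qb was seen in 93.1%, 85.3% and 81.6%. Thinning evens the UMIs per barcode but not the original mix of depths, so the deeper chow barcodes, in which C1qb is higher, still weigh in these shares. In T and NK-like cells thinned alike, C1qa was seen in 37.6%, 25.6% and 24.8%, C1qb in 32.5%, 21.1% and 20.3%, and C1qc in 23.9%, 26.7% and 17.6%. Without thinning, C1qb was seen in 99.0%, 96.6% and 96.4% of Kupffer-like cells and in 66.7%, 57.8% and 42.5% of T and NK-like cells.

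**Figure D5:**
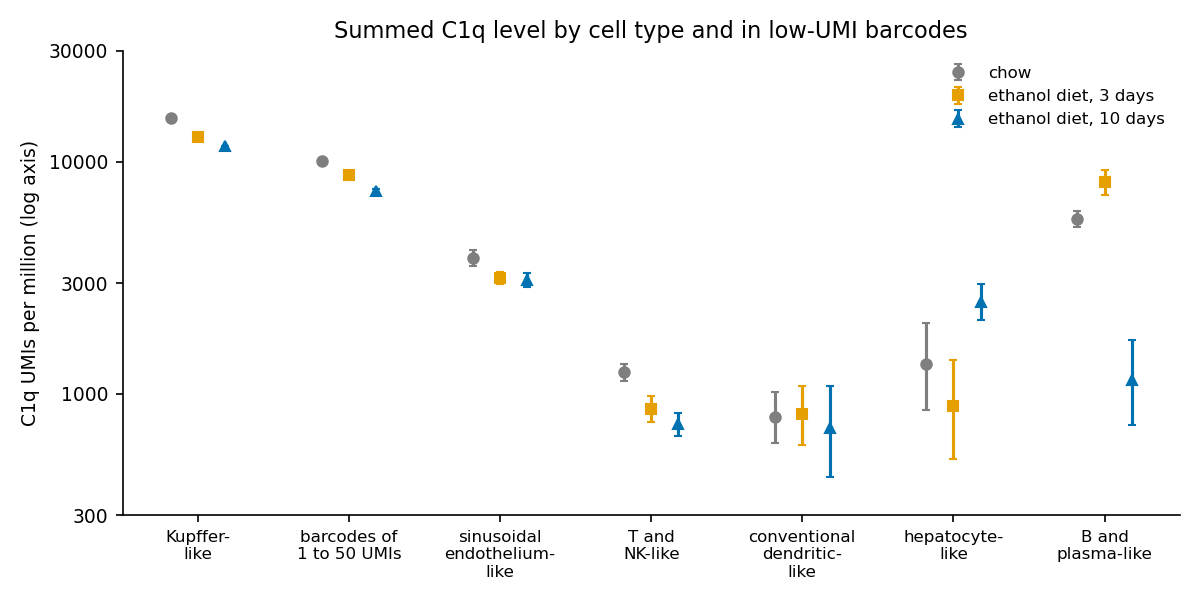
Points give the summed C1q level (CPM, log axis) in each cell type and in barcodes of 1 to 50 UMIs, by library, with exact Poisson 95% intervals. Kupffer-like cells lie at 11635 to 15422 and T and NK-like cells at 739 to 1238; the B and plasma-like points rest on 20, 10 and 12 cells.

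The rest of the complement system was unevenly present in these cells. Of a list of 49 complement genes, receptors and inhibitors, 48 were in the files and 21 reached 10 CPM. Members could pass this limit through 1 library. At 3 days over chow 1 was higher and 2 lower past 1.5-fold, against 3.24% and 1.3% of all genes. At 10 days over chow 1 was higher and 1 lower, against 3.81% and 2.33%. At 10 over 3 days 2 were higher and 0 lower, against 2.33% and 1.86%. The list's median log2 ratios were 0.06, 0.16 and 0.05, against 0.04, 0.07 and 0.02 for all genes.

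The most abundant listed members, picked by level after the values were seen, were Vsig4, a receptor for C3 fragments, at 3287, 3586 and 3511 CPM and Fcna, ficolin A of the lectin pathway, at 1976, 1890 and 2692 CPM. Cfp, properdin, was at 1272, 1322 and 1152 CPM and C6, a part of the membrane attack complex, at 746, 995 and 1005 CPM. Vsig4 was thus above C1qb at 3 days and at 10 days, and Fcna at 10 days. None of these 4 passed 1.5-fold in any comparison. RNA for C1r and C1s, the proteases that C1q carries, was low, with C1ra above the limit of 10 CPM and C1s1 below it. C1ra was at 15.4, 17.8 and 14.6 CPM and C1s1 at 0.778, 1.25 and 1.03 CPM. Serping1, the inhibitor of both, was at 1.64, 1.501 and 1.61 CPM. Of their substrates, C4b was at 424, 359 and 484 CPM and C2 at 81.6, 88.9 and 74.4 CPM. So even the least frequent C1q RNA, C1qb at 10 days with 2259 CPM, stood far above the highest value of these C1 protease genes, 17.8 CPM.

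C5ar1, a receptor for the fragment C5a, was at 62.5, 93.8 and 103 CPM, with ratios to chow of 1.501 (1.37 to 1.65) and 1.65 (1.498 to 1.83). Itgam, the CD11b chain of complement receptor 3 and a gene of the sort gate, was at 27.8, 14.6 and 31.4 CPM. It was low at 3 days, by 0.524 (0.434 to 0.632) against chow, and 10 days over 3 days was 2.15 (1.78 to 2.62). Cd55, which speeds the decay of C3 convertases, was at 40.4, 26.5 and 28.0 CPM, and its ratio at 3 days was 0.656 (0.567 to 0.758). Cfb, factor B of the alternative pathway, was at 32.1, 22.9 and 15.4 CPM, with 0.478 (0.389 to 0.584) at 10 days. C5ar2, a further C5a receptor, was at 37.1, 28.4 and 46.7 CPM, and 10 days over 3 days was 1.64 (1.42 to 1.90). C5ar1 at 3 days lay on the limit, at 1.501. Among the genes for C1q itself only C1qb met the rule, at 10 days over chow in the summed cells. Its mean over depth ranges (0.679) and its value with clusters weighted equally were not past 1.5-fold.

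Of 13 genes listed for transcription factors tied to C1q or to macrophage identity, 12 reached 10 CPM. None passed 1.5-fold at 3 days over chow or at 10 over 3 days. At 10 days over chow 1 was higher. Nr1h3, the oxysterol receptor LXR alpha, was at 559, 701 and 867 CPM, with 1.55 (1.499 to 1.603) at 10 days. Maf, a factor of macrophage identity, was at 969, 1214 and 1114 CPM. It was higher in the ethanol libraries than on chow, where C1q was highest. The list's median log2 ratio was 0.08, 0.05 and 0.03.

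Genes whose levels were most like C1q were sought with 2 measures of likeness. Over Kupffer-like barcodes thinned to 1000 UMIs, the 6 genes with the highest mean Pearson r to the C1q sum were Apoe (0.245), Lyz2 (0.179), Ftl1 (0.172), Wfdc17 (0.170), Cd74 (0.162) and Tyrobp (0.160). These are weak values in sparse counts, and no finding is read from them. Over 10 points, the cell types with at least 20 cells in a library, the highest were Mpeg1 (0.994), Ctss (0.994), Fcgr4 (0.992), Sat1 (0.990), Axl (0.990) and Csf1r (0.990). These points share libraries and depth, and 275 of 1367 genes were above 0.9, so this measure mainly tells Kupffer-like cells from the rest.

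The neighbours of the locus were silent or low. The protein-coding genes next to it, Ephb2 and Lactbl1 on the side of C1qb and Epha8 on the side of C1qa, had 0 UMIs in Kupffer-like cells of each library. A count of 0 allows up to 3 UMIs per library. Zbtb40, beyond Epha8, was at 5.18, 4.67 and 5.85 CPM.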

How the data were processed

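The authors deposited raw UMI counts per gene and barcode for 3 libraries, with no cells selected. Per the submitters' processing notes, Cell Ranger 2.2.0 was used, and the notes name the builds GRCm38 and mm10. No annotation release or setting is given in the sources used here. The genes, lists and tests were chosen with earlier results of these data known.

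Barcodes with at least 1000 UMIs, 300 genes and at most 10% mitochondrial UMIs were kept. Scrublet's automatic threshold marked 0 barcodes in each library and so did not work. Doublets were kept, and removing the 4% with the highest scores was an alternative. Barcodes of all libraries were clustered together in scanpy 1.11.5 without the C1q genes and without batch correction, with 2000 variable genes, 30 principal components, 15 neighbours and Leiden resolution 0.6. Clusters led by genes of more than 1 type were split again at resolution 0.3, a step added after a first clustering was seen. A cluster took a type's name from at least 3 markers among its 25 leading genes. It was Kupffer-like when Clec4f and Cd5l were each at least 0.5 times their level in all kept barcodes and no other type reached 3. These thresholds too were set after clustering.

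Counts were summed per cell type and library and scaled to CPM by the total of the sum. Levels have exact Poisson, shares Clopper-Pearson and ratios exact conditional binomial 95% intervals. The rule that called genes was tried on simulated counts that held counting error only. Such counts cannot show how the rule does with differences between mice. A promoter match needed the exact letters. Named genes were the list members past 1.5-fold, at most 8 per comparison, with C1ra, C1s1, Serping1 and Maf in any case, the 6 genes most like C1q by each measure, Clec4f and Cd5l, and the neighbours of the locus. Other genes are given as context to these, and some items that the rule names are not reported here. Scaling by edgeR 4.0.16 (TMM) and DESeq2 1.42.0 was used as an alternative only.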

Additional observations from a re-analysis of the deposited data

How the results depend on the processing

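No paired analysis was possible because each diet had 1 library. The 3 summed ratios and the 9 ratios of single subunits were recomputed under 18 alternatives, and in these 216 values no direction turned. Single depth ranges and single clusters were not among these values. In some of these ranges and clusters a ratio lay on the other side of 1, as for C1qc at 10 over 3 days. The sum is given here as 3 days over chow, 10 days over chow and 10 over 3 days. With Kupffer barcodes taken one by one from Clec4f and Cd5l it was 0.838, 0.776 and 0.925. With clusters weighted equally it was 0.891, 0.833 and 0.936. TMM factors of edgeR gave 0.803, 0.724 and 0.901, and size factors of DESeq2 0.799, 0.718 and 0.898. Without the filter on low counts these were 0.808, 0.728 and 0.901 with TMM and 0.808, 0.731 and 0.905 with DESeq2. Each cell thinned to 1000 UMIs gave 0.833, 0.776 and 0.932. The ranges of depth below 8000 UMIs gave 0.885, 0.823 and 0.930, and all 4 ranges 0.868 and 0.789 against chow. A mitochondrial limit of 5% moved 3 days over chow to 0.809 and 10 over 3 days to 0.935. A total without mitochondrial, ribosomal protein and globin genes moved the ratios at 10 days to 0.746 and 0.905. The other alternatives (20% mitochondrial, a lower or a higher minimum of UMIs, doublet scores, resolution 1.2, no proliferating cluster, free RNA subtracted) stayed within the counting intervals.

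C1qb at 10 days over chow was past 1.5-fold in 15 of 18 alternatives (range of all 18, 0.532 to 0.774). The exceptions were the equal weights and both averages over depth. The averages over depth were chosen after the data were seen. Without the filter on low counts, 6.02%, 7.21% and 5.74% of genes passed the 1.5-fold rule. Barcodes of 51 to 200 UMIs gave a free C1q level of 12164, 10093 and 7251 CPM, and those of 1 to 10 UMIs 10786, 9229 and 8042 CPM. Depth limits the cell types with under 20 cells most, and no number of UMIs stands in for more mice.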
